A study of Mus musculus with 6 samples.

Results

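Transient receptor potential (TRP) channels are cation channels that open to heat, cold, irritants, lipids, calcium or changes in the membrane. In the dorsal root ganglion, where sensory neurons of the trunk and limbs have their cell bodies, Trpv1, Trpa1 and Trpm8 are best known as the heat, irritant and cold channels of pain- and temperature-sensing neurons. Proprioceptors, the large neurons that report muscle length and tension and that express parvalbumin, are not known for these channels. The 9 TRP genes described here, Trpv1, Trpv2, Trpa1, Trpm2, Trpm4, Trpm7, Trpm8, Trpc1 and Trpc5, were chosen by name from the 31469 rows of the table, and each had exactly 1 row.

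The libraries were made from parvalbumin-positive neurons of the lumbar 4 dorsal root ganglion of C57BL/6 mice at postnatal day 21. The 3 Dicer knockout libraries are labelled as having lost Dicer, the enzyme that makes mature microRNAs, through parvalbumin-Cre, a driver that acts in cells that have switched on parvalbumin. The other 3 libraries were wild type, and the labels name no Cre allele for them. The labels do not say how many animals or cells went into a library, so the spread behind each p-value is that between libraries and may be technical. Values are TPM, transcript shares that are scaled by transcript length and by library and keep no sequencing depth, so the depth is unknown. In such bulk libraries, fewer cells of a type and less RNA per cell cannot be told apart.

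Each library had 13237 to 13960 rows at 1 TPM or more. Dicer1 was at 24.0, 20.8 and 21.8 TPM in knockout libraries, against 36.7, 26.0 and 48.7 TPM in wild-type libraries (log2 difference -0.68, limma adjusted p = 0.104), a value over the whole gene that does not isolate a deleted exon. Ddx3y, a Y-linked gene, was at 32.7 TPM in knockout replicate 3 and 33.3 TPM in wild-type replicate 3, and at most 0.02 TPM elsewhere. The listed proprioceptor genes included Pvalb itself, at 7.23 ± 5.85 TPM in knockout and 22.6 ± 2.71 TPM in wild-type libraries (SD, n = 3 each). The call of Pvalb (adjusted p = 0.0452) was kept without knockout replicate 3 and lost without any other 1 library (0.0804 to 0.149). Of 12 such genes tested, 9 fell, where 3.17% of all tested rows were called lower. The summed level of the 12 genes was 877 to 1085 TPM in knockout and 1913 to 2042 TPM in wild-type libraries. The list was chosen with earlier results of these data known, so the count and the sum are not an independent check. Satellite glia surround the cell bodies of sensory neurons, and their marker transcripts summed to 691 to 1244 TPM in knockout and 1163 to 2063 TPM in wild-type libraries, ranges that overlap. Of 9 glial markers tested, 2 fell, namely Fabp7, at 214 and 663 TPM in knockout and wild-type libraries, and Gja1, at 1.80 and 7.14 TPM. The Fabp7 call was lost without knockout replicates 1 or 2 or wild-type replicates 1 or 3 (adjusted p up to 0.130), and the Gja1 call without any 1 library (0.0599 to 0.121). The other 7 did not pass. Of the 9 glial differences, 8 were negative and 1 positive, with a median log2 difference of -0.615. The positive one was that of Glul, the glial glutamine synthetase, named after its values were seen. Glul was at 227 TPM in knockout and 149 TPM in wild-type libraries (log2 difference 0.65, adjusted p = 0.105). The groups did not overlap for Glul, which passed without wild-type replicate 3 (0.89, adjusted p = 0.0455). Glul also passed with the glial covariate (1.03, adjusted p = 0.0439). That covariate is the mean level of the 9 glial markers, Glul among them, so this fit is no separate support for its difference. Of other cell types, 3 of 6 Schwann cell markers and 3 of 7 endothelial and mural markers were below 1 TPM in every library, and Cldn5 of endothelium was listed at 0 in all 6. The markers above that level, some named after their values were seen, did not share a direction. Pmp22, a protein of peripheral myelin, was higher at 1223 ± 178 TPM in knockout against 480 ± 39.4 TPM in wild-type libraries (SD, n = 3 each; adjusted p = 0.00212), and Mbp, a further myelin protein, was at 6.77 and 14.1 TPM in knockout and wild-type libraries (adjusted p = 0.0568). Egfl7 of endothelium was at 18.8 and 15.2 TPM in knockout and wild-type libraries (adjusted p = 0.423), Dcn of fibroblasts at 23.7 and 25.4 TPM (0.923) and Hba-a2 of red blood cells at 35.6 and 10.5 TPM (0.135). The part of RNA from these cells in the TRP levels was not tested.

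None of the 9 TRP genes passed the test in either direction. Trpv2 and Trpc1 had the highest levels, Trpm7, Trpm4 and Trpm2 were present at lower levels, Trpc5 was low, and the classical pain and temperature channels Trpv1, Trpa1 and Trpm8 stayed at or near the bottom of the scale. The gene with the lowest p was Trpv2, which averaged 46.8 TPM in knockout and 33.3 TPM in wild-type libraries and missed the threshold (adjusted p = 0.0591). The test was limma on log2(TPM + 1), with p-values adjusted over all 13787 rows that had a mean of at least 1 TPM and a threshold of 0.05. Of the 9 genes, 6 had such a mean and were tested, and 0 of these were called higher and 0 lower. Without adjustment, 1 (Trpv2) was higher and 0 were lower at p under 0.05, a limit for which the share of all tested rows was not counted. Over all tested rows 5.03% were called, 1.86% as higher and 3.17% as lower in knockout libraries, so that a count of 0 among 6 is near the background. The median log2 difference was 0.14 over the 6 tested members and -0.05 over all tested rows.

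**Figure D1:**
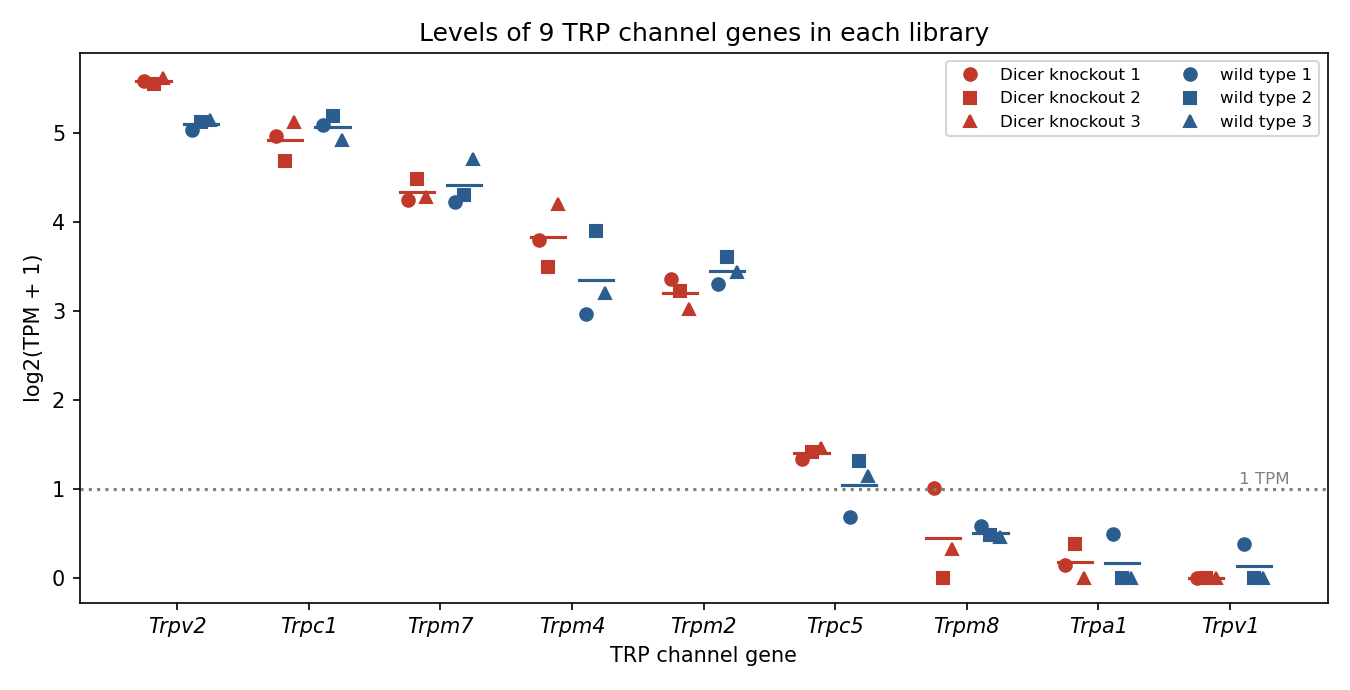
Level of each TRP gene, as log2(TPM + 1), in the 3 Dicer knockout libraries (red, left of each pair) and the 3 wild-type libraries (blue). Each point is a library, each short line the mean of a group on this scale and the dotted line marks 1 TPM; the groups do not overlap for Trpv2 and Trpc5, while Trpv1 and Trpa1 lie below 1 TPM in all 6 libraries.

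Because Dicer makes mature microRNAs, the 3′ untranslated regions of the 9 genes were read for sites of 12 microRNA families known from neurons. Among the 6 tested members, sites were found in Trpm7 and Trpm2, and none of the 12 motifs was found in Trpv2, Trpc1, Trpm4 or Trpc5. The 7 microRNAs with a site in Trpm7 or Trpm2 are shown because they pair with the sites given after them. Sequences are from RefSeq (GRCm38.p6), 5′ to 3′, with the seed (bases 2 to 8) in capitals.
mmu-miR-7a-5p: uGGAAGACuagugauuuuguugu
mmu-miR-9-5p: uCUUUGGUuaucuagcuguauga
mmu-miR-30a-5p: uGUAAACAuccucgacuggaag
mmu-let-7a-5p: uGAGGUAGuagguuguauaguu
mmu-miR-183-5p: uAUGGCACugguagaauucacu
mmu-miR-125b-5p: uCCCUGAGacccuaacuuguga
mmu-miR-138-5p: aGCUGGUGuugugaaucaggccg
No 2 of these microRNAs share a seed.

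The matching sites in the longest annotated 3′ untranslated regions (GENCODE vM21, GRCm38, sense strand) carry the 7 bases complementary to the seed in capitals. The region of Trpm7 was 1261 bases long and held 4 sites of 3 families, and the last of them lies near the end of the region, which cuts its printed flank short.
Trpm7, miR-9, base 271: gcaggaccattaACCAAAGtcaagtct
Trpm7, miR-7, base 361: taaatggctgaaGTCTTCCtcagtttg
Trpm7, miR-7, base 488: tgaaaaccgtttGTCTTCCctctctcc
Trpm7, miR-30, base 1254: taaatttattctTGTTTACa
The region of Trpm2 was 2454 bases long and held 5 sites of 5 families.
Trpm2, miR-183, base 237: ctatgtcctcaaGTGCCATgctttgac
Trpm2, miR-125, base 677: cagggtaggtgaCTCAGGGattggtac
Trpm2, miR-138, base 1375: caatctcatgccCACCAGCtgagagat
Trpm2, let-7, base 2077: atcctaatctggCTACCTCccaggcaa
Trpm2, miR-30, base 2370: attggggagcaaTGTTTACacaacatc

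Such short matches are common. Of 1866 tested genes with a region 0.8 to 1.25 times as long as that of Trpm7, 12.4% held the miR-7 motif, 12.9% the miR-9 motif and 14.0% the miR-30 motif. Of 1877 genes with a region like that of Trpm2 in length, 14.6% held the let-7 motif, 15.8% the miR-183 motif, 24.4% the miR-125 motif, 24.8% the miR-30 motif and 19.9% the miR-138 motif. Trpm7 held sites of 3 families, and the median gene with a region of like length held sites of 1. Trpm2 held sites of 5 families and Trpc1 of none, against a median of 2 in the genes of like length for each. The other motifs were GTGCCAA (miR-96), TTGCCAA (miR-182), TACTTGA (miR-26), CACTGTG (miR-128) and TGGTGCT (miR-29), found in 10.2%, 13.2%, 11.8%, 23.3% and 16.0% of 11525 regions and in none of the 9 genes. Among the untested members, Trpv1 held 1 miR-125 site, and Trpa1 and Trpm8 held none. The motifs of miR-183 and miR-96 share all letters but the last, and no site was read on the antisense strand. The 2 tested genes that hold sites, Trpm7 and Trpm2, had differences of -0.08 and -0.24 on the log2 scale, neither of which passed the test.

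Trpv2 encodes a channel related to the capsaicin receptor, which in rodents answers to strong heat and to membrane stretch and is found in medium and large myelinated sensory neurons of the rat (chromosome 11, 62574486 to 62600515, GRCm38). It was at 46.8, 45.6 and 48.0 TPM in knockout libraries, against 31.7, 33.8 and 34.4 TPM in wild-type libraries. All 3 knockout values lay above all 3 wild-type values, and the spread within each group was small, with means of 46.8 ± 1.20 and 33.3 ± 1.40 TPM in knockout and wild-type libraries (SD, n = 3 each). The log2 difference was 0.48 (SE 0.12), a 1.39-fold higher level with a 95% interval of 1.15 to 1.69, with an unadjusted p of 0.0037 and an adjusted p of 0.0591 in limma. Groups that do not overlap were found for 28.9% of all tested rows.

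The side of the threshold on which Trpv2 fell depended on the setting, and the size of its difference hardly did. The log2 difference stayed between 0.45 and 0.55 over 17 alternatives. It passed with a filter at a mean of 5 TPM, where fewer rows were tested (adjusted p = 0.0468), with median-of-ratios rescaling (0.0335) and with library weights (0.0493). Over the alternatives its adjusted p was 0.0335 to 0.169, and without any 1 library it was 0.0981 to 0.166. With the mean level of the 9 glial markers as a covariate, the difference of Trpv2 was 0.51 (adjusted p = 0.169). Macrophages also express Trpv2, and 7 of their 8 listed markers were below 1 TPM in every library, with Lyz2 at 3.91 and 7.05 TPM in knockout and wild-type libraries. The 8 markers summed to 3.99 to 6.07 TPM in knockout and 6.02 to 8.76 TPM in wild-type libraries. C1qb was at 0.64, 0.42 and 0.47 TPM in knockout libraries, against 0, 0 and 0 TPM in wild-type libraries, and Cx3cr1 was at 0.06, 0.12 and 0.13 TPM in knockout libraries, against 0.05, 0 and 0 TPM in wild-type libraries. C1qb and Cx3cr1, named after their values were seen, thus lay higher in every knockout library, at values below 1 TPM that were not tested. Lyz2 lay lower in every knockout library (adjusted p = 0.15 in limma). The groups overlapped for Cd68, Aif1, Csf1r and Ptprc, and C1qa was listed at 0 in every library. The part of macrophage RNA in the difference of Trpv2 was not tested.

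**Figure D2:**
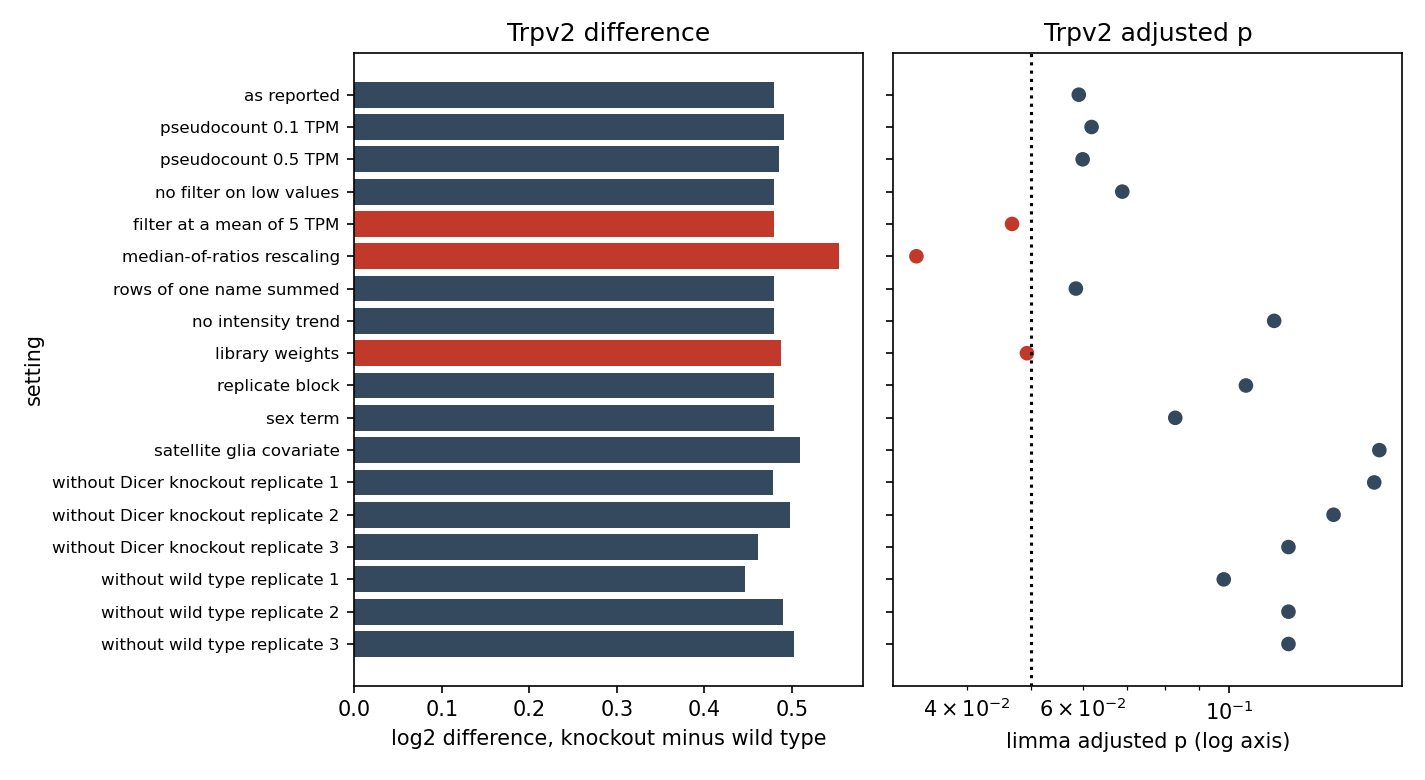
Trpv2 under the reported setting and 17 alternatives: the log2 difference, knockout minus wild type (left, bars from 0), and the limma adjusted p (right, log axis, dotted line at 0.05). Red marks the 3 alternatives under 0.05; the bars stay between 0.45 and 0.55 while the adjusted p runs from 0.0335 to 0.169.

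Trpc1 and Trpc5 belong to the canonical TRP branch, whose channels open after receptor signals through phospholipase C. Trpc1 forms channels together with Trpc4 or Trpc5 and has been linked to store-operated calcium entry (chromosome 9, 95705082 to 95750375). It was at 30.2, 24.6 and 33.7 TPM in knockout libraries, against 33.1, 35.3 and 29.3 TPM in wild-type libraries. The groups overlapped, and the log2 difference was -0.14 (SE 0.16, adjusted p = 0.63), with a 95% interval of 0.70 to 1.17 on the fold scale. With each library left out the difference was -0.24 to -0.025, the smallest size being that without knockout replicate 2. Its partner Trpc5 (chromosome X, 144381671 to 144688180) was at 1.52, 1.66 and 1.74 TPM in knockout libraries, against 0.60, 1.48 and 1.20 TPM in wild-type libraries. The groups did not overlap, but the difference of 0.36 (SE 0.35, adjusted p = 0.577) rested on values near 1 TPM, and its interval, 0.74-fold to 2.22-fold, was wide. The difference of Trpc5 was 0.18 without wild-type replicate 1 and 0.62 with a pseudocount of 0.1 TPM.

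Trpm7, Trpm4 and Trpm2 belong to the melastatin branch. Trpm7, a channel joined to a protein kinase that passes magnesium and calcium (chromosome 2, 126791565 to 126876230), was at 17.9, 21.3 and 18.4 TPM in knockout libraries, against 17.7, 18.6 and 25.2 TPM in wild-type libraries. The groups overlapped, and the difference was -0.08 (SE 0.18, adjusted p = 0.835; interval 0.71-fold to 1.27-fold); it was 0.07 without wild-type replicate 3 (adjusted p = 0.859). Trpm4, a channel that is opened by calcium inside the cell and passes sodium and potassium (chromosome 7, 45302632 to 45333780), was at 12.9, 10.2 and 17.4 TPM in knockout libraries, against 6.77, 13.9 and 8.16 TPM in wild-type libraries. Wild-type replicate 2 lay among the knockout values. The difference of 0.48 was as large as that of Trpv2 but had an SE of 0.29 (adjusted p = 0.356; interval 0.88-fold to 2.20-fold), and it was 0.28 to 0.75 with each library left out.

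Trpm2, which opens on ADP-ribose and oxidative stress and has been tied to warmth sensing in mouse sensory neurons (chromosome 10, 77907722 to 77970563), was at 9.24, 8.34 and 7.10 TPM in knockout libraries, against 8.87, 11.1 and 9.77 TPM in wild-type libraries. Knockout replicate 1 lay above wild-type replicate 1, and the difference was -0.24 (SE 0.21, adjusted p = 0.51; interval 0.61-fold to 1.17-fold). With each library left out the difference was -0.32 to -0.15, the smallest size being that without knockout replicate 3. The exons of Trpm2 overlap 2 small nucleolar RNA genes on the same strand over 91 bases, whose reads the table does not separate.

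**Figure D3:**
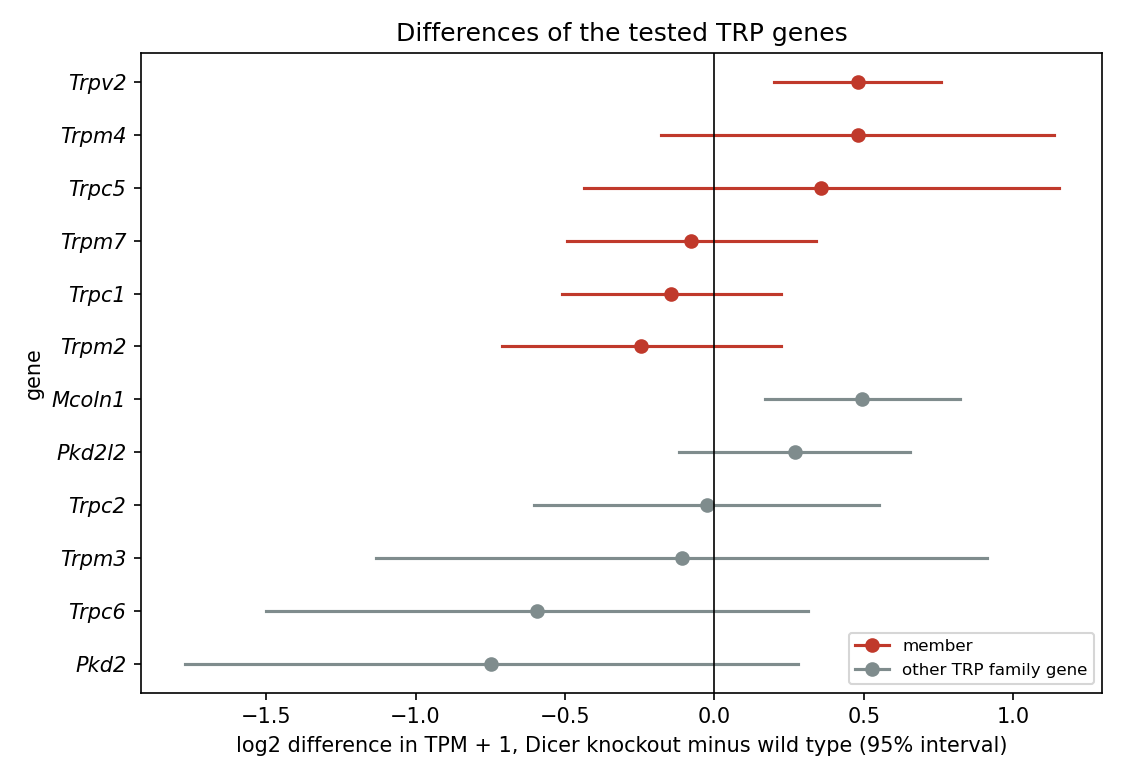
Log2 difference in TPM + 1, knockout minus wild type, with its 95% interval from limma, for the 6 tested members (red, upper rows) and 6 other tested TRP family genes (grey). The intervals of Trpv2 and Mcoln1 lie on 1 side of 0, before adjustment for the number of rows tested, and 0 of the 12 genes passed after it.

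The remaining members are the channels of pain and temperature. Trpv1, the receptor of capsaicin and noxious heat (chromosome 11, 73234292 to 73261242), was listed at 0 in each knockout library and at 0.30, 0 and 0 TPM in wild-type libraries. Trpa1, which opens on mustard oil and other irritants (chromosome 1, 14872648 to 14918862), was at 0.10, 0.30 and 0 TPM in knockout libraries, against 0.40, 0 and 0 TPM in wild-type libraries. Both were below 1 TPM in all 6 libraries and are near absent by that measure. Trpm8, the receptor of menthol and cold (chromosome 1, 88277661 to 88389293), was at 1.01, 0 and 0.25 TPM in knockout libraries, against 0.49, 0.39 and 0.37 TPM in wild-type libraries. Knockout replicate 1 thus stood just above the limit of 1 TPM, which makes Trpm8 low and not near absent, with the same mean of 0.42 TPM in both groups. Its exons overlap an antisense gene over 388 bases, and the table does not say whether strand was used in counting. None of these 3 genes entered the test, and since depth is unknown a value of 0 gives no upper limit. Their summed level was 0.25 to 1.11 TPM in knockout and 0.37 to 1.19 TPM in wild-type libraries.

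Other transcripts listed for nociceptors and thermoreceptors were present beside these 3 channels, and whether each is restricted to such neurons was not tested. Of 15 nociceptor and thermoreceptor genes, 11 were tested, of which 2 rose, 1 fell and 8 did not pass. Over all tested rows 1.86% were called higher and 3.17% lower. Of the 11 differences, 10 were positive and 1 negative, with a median log2 difference of 0.70. Gfra2, a co-receptor for neurturin, was at 110 ± 38.0 TPM in knockout and 39.6 ± 16.4 TPM in wild-type libraries (SD, n = 3 each; log2 difference 1.48, limma adjusted p = 0.0467). Calcb, a calcitonin gene-related peptide, was at 46.2 ± 1.73 and 23.6 ± 6.91 TPM in knockout and wild-type libraries (0.98, adjusted p = 0.0268). The call of Gfra2 held only without knockout replicate 3 and that of Calcb only without wild-type replicate 1 among the fits with 1 library left out. With a term for the libraries with Ddx3y the call of Gfra2 was lost (adjusted p = 0.0649). Tac1, which encodes substance P, was at 2.43 ± 2.15 TPM in knockout and 33.6 ± 12.4 TPM in wild-type libraries (-3.57, adjusted p = 0.0128). Over the alternatives the difference of Tac1 was -4.84 to -2.83, and its call was lost with a pseudocount of 0.1 TPM (adjusted p = 0.0629) and without the intensity trend (0.057).

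Scn10a, a sodium channel of nociceptors named here after its values were seen, was at 13.4, 17.1 and 14.1 TPM in knockout libraries, against 7.38, 7.44 and 0 TPM in wild-type libraries (1.93, adjusted p = 0.144). The difference of Scn10a was 0.91 without wild-type replicate 3 and 0.76 with the glial covariate. Nppb and Sst, peptides of itch neurons, were listed at 0 in all 6 libraries. Mrgprd, also untested, was at 3.99, 0.83 and 0 TPM in knockout libraries, against 0 in each wild-type library. Gfra3, untested as well, was at 0.44, 0 and 0 TPM in knockout libraries, against 0.58, 1.56 and 0 TPM in wild-type libraries. The summed level of the 15 genes was 423 to 561 TPM in knockout and 256 to 480 TPM in wild-type libraries, and whether nociceptor RNA has a part in the levels of the TRP genes was not tested.

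The order of the members was nearly the same in both groups. In knockout libraries the order was Trpv2, Trpc1, Trpm7, Trpm4, Trpm2, Trpc5, Trpm8, Trpa1 and Trpv1, and the ranges of neighbours were apart down to Trpm8. In wild-type libraries Trpv2 and Trpc1 did not differ beyond their spread, at 33.3 and 32.6 TPM, nor did Trpm2 and Trpm4, at 9.92 and 9.60 TPM. In both groups the ranges of Trpm8, Trpa1 and Trpv1 overlapped from each gene to the next. By mean level over all libraries, Trpv2 ranked in the top 28.9% of the tested rows, Trpc1 in the top 34.5%, Trpm7 in the top 45.2%, Trpm4 in the top 58.0%, Trpm2 in the top 63.3% and Trpc5 in the top 95.6%.

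The 9 genes together summed to 120, 112 and 127 TPM in knockout libraries, against 99.9, 115 and 108 TPM in wild-type libraries. The groups overlapped (119 ± 7.25 and 108 ± 7.33 TPM in knockout and wild-type libraries, SD, n = 3 each; two-sided exact permutation p = 0.2). Trpv2 made up 39.2%, 40.7% and 37.9% of that sum in knockout libraries, against 31.8%, 29.5% and 31.8% in wild-type libraries. The ratio of Trpv2 to Trpc1, which does not depend on how a library is scaled, was 1.55, 1.85 and 1.42 in knockout libraries, against 0.96, 0.96 and 1.18 in wild-type libraries. Trpv2 thus stood above Trpc1 in each knockout library and in 1 of 3 wild-type libraries. The difference in the mean ratio was 0.58, and 0.46 to 0.67 with each library left out. A two-sided exact permutation test gave p = 0.1 for the ratio and for the share of Trpv2, the smallest p that 3 against 3 libraries allow. Both contain the level of Trpv2 itself, for which the groups did not overlap, so they are no separate support for its difference.

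**Figure D4:**
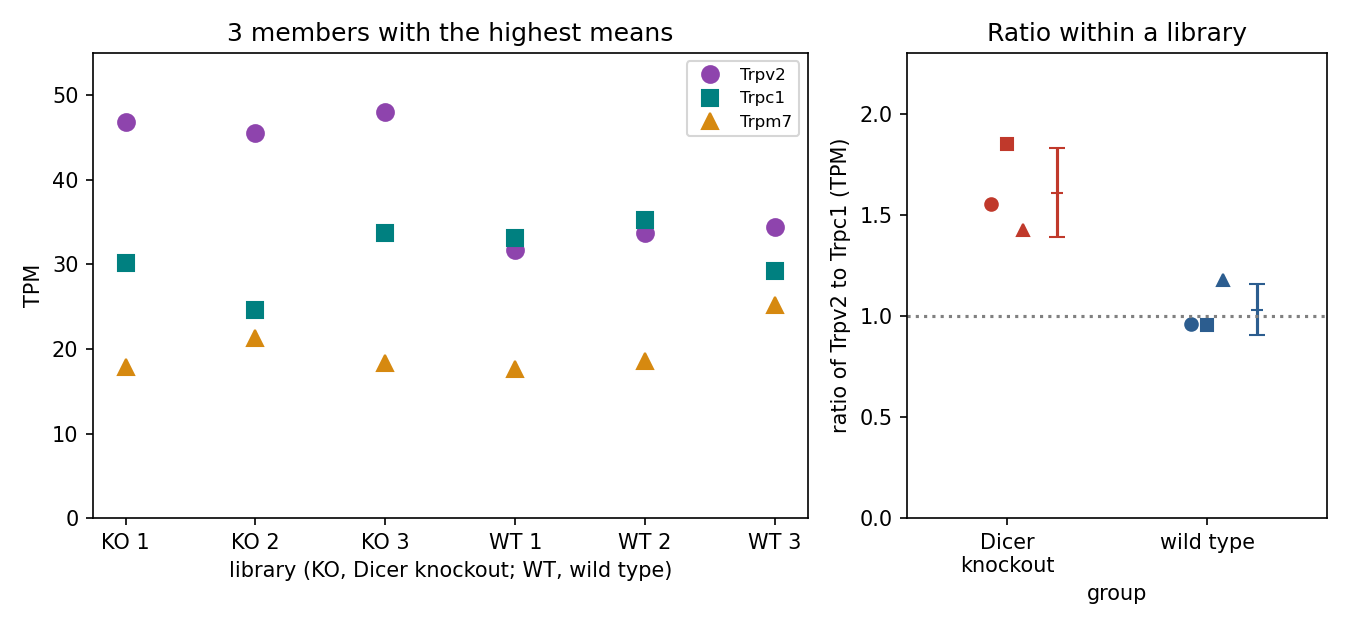
Left, TPM of Trpv2, Trpc1 and Trpm7 in each knockout (KO) and wild-type (WT) library; right, the ratio of Trpv2 to Trpc1 within a library, with the mean ± SD of each group beside the points. The ratio was 1.42 to 1.85 in knockout and 0.96 to 1.18 in wild-type libraries, and the dotted line marks equal levels.

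Of 18 other listed genes of the TRP family, 6 had a mean of at least 1 TPM, and limma called 0 higher and 0 lower. Before adjustment, 1 (Mcoln1) was higher and 0 were lower at p under 0.05, again without a count over all tested rows. Mcoln1, the lysosomal channel mucolipin 1, was at 41.5, 34.9 and 38.9 TPM in knockout libraries, against 24.1, 28.7 and 28.2 TPM in wild-type libraries (log2 difference 0.50, SE 0.14, adjusted p = 0.0819). Its groups did not overlap, and it passed with median-of-ratios rescaling (adjusted p = 0.0424; range over the alternatives 0.0424 to 0.238).

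Trpm3, a further heat-activated channel of sensory neurons, varied widely, at 12.6, 4.75 and 11.3 TPM in knockout libraries, against 7.55, 5.95 and 19.4 TPM in wild-type libraries (-0.11, adjusted p = 0.911). Its sign turned without knockout replicate 2 (0.28) or wild-type replicate 3 (0.36) and with the glial covariate (0.74). The exons of Trpm3 overlap Gm27151 and C330002G04Rik on the opposite strand over 628 bases, so its level is uncertain. Pkd2l2, a member of the polycystin branch, was at 14.7 ± 0.92 TPM in knockout and 12.0 ± 0.75 TPM in wild-type libraries (SD, n = 3 each; adjusted p = 0.381). Its exons overlap Fam13b on the opposite strand, so its level is uncertain.

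Trpc2, a channel of the mouse vomeronasal organ, averaged 4.23 TPM in knockout and 4.28 TPM in wild-type libraries (adjusted p = 0.965), and shares exons with Xndc1 and Xntrpc, so its level is uncertain too. Pkd2, the channel of primary cilia, averaged 1.57 TPM in knockout and 3.35 TPM in wild-type libraries (adjusted p = 0.356), and Trpc6, a channel opened by diacylglycerol, 0.83 and 1.82 TPM in knockout and wild-type libraries (adjusted p = 0.41). The other 12 were low or near absent, 11 of them below 1 TPM in every library, and Trpv5 was listed at 0 in all 6.

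Genes whose products bind or regulate TRP channels showed 1 call among the 30 tested that are reported here, near the background of 5.03% of all tested rows. Calm2, which encodes the calcium sensor calmodulin, fell to 4497 ± 440 TPM in knockout libraries, against 6733 ± 643 TPM in wild-type libraries (SD, n = 3 each; log2 difference -0.58, limma adjusted p = 0.0395). The call of Calm2 held only without knockout replicate 3 among the fits with 1 library left out, and it was lost with a term for the libraries with Ddx3y (adjusted p = 0.0629). Before adjustment, 4 of the 30 were higher and 5 lower at p under 0.05, and the median log2 difference was 0.09. The share of all tested rows under that unadjusted limit was not counted, so these counts cannot be told from the background. Pirt, a membrane protein that binds phosphoinositides and enhances Trpv1 and Trpm8, was named after its values were seen. It was at 318, 311 and 363 TPM in knockout libraries, against 303, 248 and 204 TPM in wild-type libraries (0.41, adjusted p = 0.142), while Trpv1 was listed at 0 in 5 of these 6 libraries.

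The rows most like each present member over the 6 libraries were sought among 9301 rows with a symbol and a mean of at least 5 TPM. Trpv2 was most like Hs3st4, a heparan sulfate sulfotransferase gene, and Crybb3, a beta crystallin gene, with Pearson r of 0.996 and 0.995 on log2(TPM + 1). Hs3st4 was at 24.5, 21.7 and 23.3 TPM in knockout libraries, against 10.2, 11.8 and 12.5 TPM in wild-type libraries. For Trpv2, 84 rows had an r over 0.95, against 11 to 27 for the other present members. Trpc1 was most like Lypla1 and Oxnad1 (0.993 and 0.990), Trpm7 like Uxs1 and Rnf157 (0.985 and 0.985), Trpm4 like Tm7sf2 and Prkaa2 (0.991 and 0.982) and Trpm2 like Arxes1 and Cbwd1 (0.995 and 0.989). These values describe 6 points per gene that share library, genotype and scaling, and the highest of so many rows will be high for any pattern.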

How the data were processed

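Per the file header and the sample titles, the authors deposited TPM values in 1 table that keeps the 6 libraries separate. RSEM 1.2.7, Bowtie2 and cutadapt, with the build mm10, are named in the submitters' processing notes; which annotation was used is not given in the sources used. Per the labels' protocols, RNA was amplified with an Ovation kit, which adds noise for rare transcripts. TPM is relative, so abundant transcripts lower the others.

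Differences were tested with limma 3.58.1 (R 4.3.3), with an intensity trend and genotype as the only term, on log2(TPM + 1). It was two-sided, with p-values adjusted by Benjamini and Hochberg over all tested rows, and was tested on simulated data. Fold changes on this scale understate changes of low genes. Of several rows of 1 name, that with the highest mean stood for the gene. Genes below 1 TPM in every library were called near absent, those with a mean of at least 5 TPM present, and others low. Permutation tests used SciPy 1.17.1. Coordinates and 3′ untranslated regions came from GENCODE vM21 (GRCm38, the assembly that mm10 names); 11525 of 13675 tested names had such a region, and miR-124 was not searched. The members and lists were chosen with earlier results of these data known. Named genes were the members, TRP family genes with a mean of at least 1 TPM, called genes of other lists and the 2 rows most like each present member; a part of the genes so picked or listed is not reported here. Alternatives changed the pseudocount, filter, scaling, row choice, trend, weights, covariates and libraries.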

Additional observations from a re-analysis of the deposited data

How the results depend on the processing

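No TRP member was called lower under any of the 17 alternatives, and 1 (Trpv2) was called higher under 3 of them, a filter at a mean of 5 TPM, median-of-ratios rescaling and library weights. Trpv2, Trpm4 and Trpc5 kept a positive sign and Trpc1 and Trpm2 a negative one wherever they were fitted; Trpc5 could not be fitted with the filter at 5 TPM. Signs turned for Trpm7 without wild-type replicate 3 (0.073, with a range of -0.17 to 0.073 with 1 library left out) and with the satellite glia covariate (0.018). They also turned for Trpm3 with that covariate (0.74) and without knockout replicate 2 (0.28) or wild-type replicate 3 (0.36; leave-one-out range -0.42 to 0.36). For Trpc2 they turned with median-of-ratios rescaling (0.037) and without knockout replicates 1 (0.034) or 3 (0.049; leave-one-out range -0.16 to 0.049). Dcn, at -0.06, turned with median-of-ratios rescaling (0.0095), with the glial covariate (0.47) and without knockout replicates 1 (0.075) or 2 (0.020) or wild-type replicates 1 (0.083) or 3 (0.12; leave-one-out range -0.40 to 0.12). The cause was not tested.

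Over all rows, 256 were called higher and 437 lower. The counts were 130 and 248 with no filter, where more rows were tested, 57 and 168 without the intensity trend, and 68 and 92 with the satellite glia covariate. With 1 library left out, higher calls ranged from 48 to 348, lower calls from 116 to 487, and members called higher and lower were 0 throughout. Median-of-ratios rescaling gave 375 higher and 385 lower. Whether the replicate numbers pair the libraries was not settled. Same-numbered libraries correlated at 0.049, 0.066 and 0.038 in their deviations from the group means, and libraries of unlike number at -0.098 to 0.071. Not every library correlated best with its own number, but replicate 3 was the library with Ddx3y in both groups. With the replicate block 188 rows were higher and 341 lower, 0 members were called, Trpv2 had an adjusted p of 0.106, and the calls of Calm2 (0.0893) and Gfra2 (0.0601) were lost. Values near 1 TPM and below limit what can be said of Trpc5, Trpm8, Trpa1 and Trpv1, and 3 libraries per group limit the rest.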
